A study of Mus musculus with 6 samples.

Results

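The 8 genes described here encode small heat shock proteins (Hspb1, Hspb2, Hspb3, Hspb6, Hspb7, Hspb8 and Cryab) and the co-chaperone Bag3, and were listed by name out of 45320 Ensembl gene identifiers. All 8 were found in the files, and all 8 entered the test, which took every gene that averaged 1 FPKM or more. FPKM counts fragments relative to transcript length and sequencing depth, so that levels of different genes can be compared on it. The samples were whole brown adipose tissue of C57BL/6 mice that were 4 weeks old when a fat-rich, sugar-rich diet began and were divided after 4 weeks of it. In 3 samples (17, 33 and 35, called treated) the diet then held RO5508887, a small-molecule inhibitor of the protease BACE1, and in 3 samples (13, 14 and 15, called untreated) it held no drug. All mice had the same strain and the same diet, and no genetic change was named. Samples 33 and 35 held identical values in all 45320 rows and were counted as 1 library, treated 33/35. This left 2 treated and 3 untreated libraries.

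Small heat shock proteins share an alpha-crystallin domain and bind unfolding proteins without using ATP, which keeps them from clumping until chaperones of the HSP70 class can refold them or pass them on for degradation. Several of them are abundant in striated muscle, where they protect actin, desmin, titin and filamin during contraction. BAG3 joins HSPB8 to HSP70 and directs damaged filamin to autophagy. Brown fat, the tissue sampled, burns fuel to make heat.

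The libraries differed in skeletal muscle transcripts, and this bears on every value below. A list of 30 skeletal muscle markers accounted for 3.26% of all FPKM in treated 17, mitochondrial genes left out, and for 1.37% in treated 33/35. The share was 7.86% in untreated 14, but 0.0315% in untreated 13 and 0.0316% in untreated 15. Levels of the creatine kinase gene Ckm, which is specific to muscle, were 1262 and 531 FPKM in treated 17 and 33/35, against 2733 FPKM in untreated 14 and 2.25 and 1.46 FPKM in untreated 13 and 15. Ucp1, the uncoupling protein that defines brown fat, was present in every library, at 1119 and 1321 FPKM in the treated ones and 1837, 227 and 1912 FPKM in untreated 13, 14 and 15. In such bulk tissue, fewer cells of a type and less RNA per cell cannot be told apart. The number of reads was not given, and steps between low values put the depth of the libraries at 0.811 to 1.01 times that of untreated 13.

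Members were called muscle-borne where they ranked the libraries as the muscle markers do (untreated 14, treated 17, treated 33/35, then untreated 13 and 15) and measured at least 5 times more in untreated 14 than in the higher of untreated 13 and 15. They were called fat-expressed where both untreated 13 and untreated 15, the libraries with few muscle transcripts, reached 1 FPKM. Hspb2, Hspb3 and Hspb7 were muscle-borne alone, Hspb6 and Cryab were both, and Hspb8, Bag3 and Hspb1 were fat-expressed alone. Of all 13527 genes that passed the filter, 4.70% met the muscle-borne criteria. The bar for fat-expressed was low, since 12964 identifiers reached 1 FPKM in untreated 13 and 12729 in untreated 15. So did 13 and 12 of the 30 skeletal muscle markers, so the remaining muscle transcripts can meet it too. "Fat-expressed" says that the transcript was present where few muscle transcripts were, and not which cell of the tissue made it. "Fat-expressed alone" says that the muscle-borne criteria were not met, and not that muscle gave no part of the level.

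**Figure D1:**
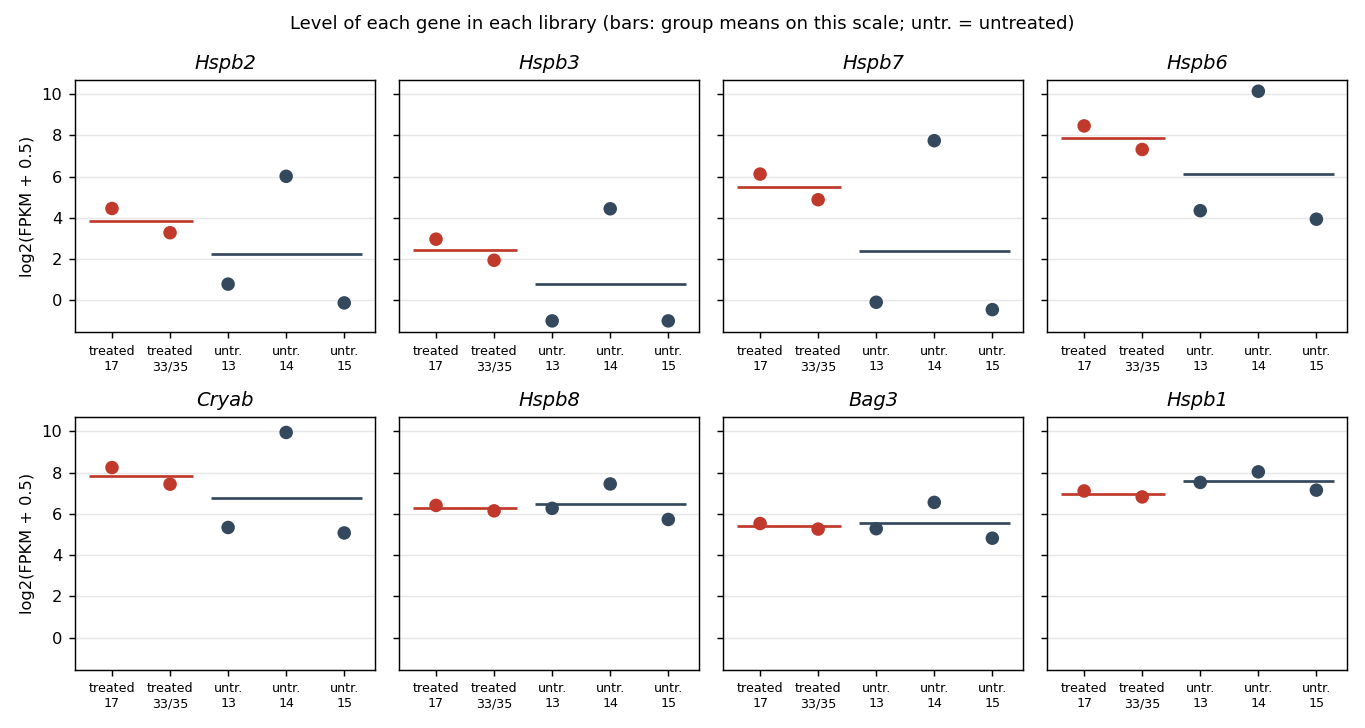
Level of each of the 8 genes, as log2(FPKM + 0.5), in the treated libraries 17 and 33/35 (red, left) and the untreated libraries 13, 14 and 15 (dark, right), with bars for the group means on this scale. Hspb2, Hspb3, Hspb7, Hspb6 and Cryab are highest in untreated 14 and lowest in untreated 13 and 15, while Hspb1 is lower in both treated libraries than in each untreated one.

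Among the muscle-borne members, Hspb2, Hspb3 and Hspb7 were nearly missing from the libraries with few muscle transcripts. HSPB2 and HSPB3 bind each other in muscle. Hspb2 measured 21.4 and 9.20 FPKM in treated 17 and 33/35, against 1.22, 64.1 and 0.416 FPKM in untreated 13, 14 and 15. Hspb3 measured 7.30 and 3.34 FPKM with the drug and 21.2 FPKM in untreated 14, and was listed at 0 in untreated 13 and 15. Without read counts, absence cannot be read from a listed 0. In the 3 libraries that held both, the ratio of Hspb2 to Hspb3 was 2.93 (treated 17), 2.75 (treated 33/35) and 3.03 (untreated 14).

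Hspb7, a small heat shock protein of heart and skeletal muscle that binds filamin C, had the widest range of the 8 genes among those above 0 in every library. It measured 69.1 and 28.9 FPKM in treated 17 and 33/35, and 0.436, 214 and 0.230 FPKM in untreated 13, 14 and 15. The value in untreated 14 was 490 times the higher of the other untreated values. Both treated libraries fell in the gap between untreated 14 and the other pair of untreated libraries.

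Hspb6 and Cryab were muscle-borne and yet clearly present where few muscle transcripts were. HSPB6 is a target of cyclic AMP-dependent protein kinase and takes part in the relaxation of smooth muscle, and CRYAB, the alpha-B crystallin, binds desmin and titin. Hspb6 measured 351 and 159 FPKM in treated 17 and 33/35, against 19.9, 1129 and 14.8 FPKM in untreated 13, 14 and 15. Cryab measured 304 and 174 FPKM in the treated libraries, against 40.1, 991 and 33.3 FPKM in untreated 13, 14 and 15. In untreated 14 they ranked 50 and 57 among all genes by FPKM, and in untreated 13 they ranked 3900 and 2132. Hspb6 exceeded Cryab in treated 17 and untreated 14, with ratios of 1.16 and 1.14, but not in treated 33/35 (0.914) or untreated 13 and 15 (0.495 and 0.444).

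The excess of these 5 genes over the mean of untreated 13 and 15 was set against the muscle marker share of each library, as a description. Per 1% of muscle marker FPKM, the excess of Hspb6 was 102 and 103 FPKM in treated 17 and 33/35, against 141 FPKM in untreated 14. For Hspb7 it was 21.1 and 20.9 FPKM with the drug and 27.1 FPKM in untreated 14. For Cryab it was 82.0 and 100.2 FPKM with the drug and 121 FPKM in untreated 14. For each of these 3 genes, and for Hspb2 and Hspb3, both treated values lay below that of untreated 14. The same held for 490 of the 636 genes that met the muscle-borne criteria and for 16 of the 30 muscle markers, so it does not set these 5 genes apart. Untreated 14 was the only untreated library in which muscle markers made up more than 0.0316% of FPKM, so this has no replicate check. The markers did not rise in step either. The muscle myosin gene Myh7 measured 265 and 140 FPKM in treated 17 and 33/35 and 1115 FPKM in untreated 14. For Ckm these values were 1262, 531 and 2733 FPKM. The excess per 1% thus depends on which markers are listed, and the part of the kind of muscle was not tested.

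Cryab and Hspb2 lie next to each other on chromosome 9 in opposite directions (GRCm38), Cryab at 50751325 to 50756636 on the plus strand and Hspb2 at 50751078 to 50752354 on the minus strand. In the GENCODE M21 annotation 2 of the 6 transcripts of Cryab begin within Hspb2, and 252 exonic bases belong to both genes, which is 30.2% of the exonic bases of Hspb2. Whether the counting used strand was not given in the sources used here. If it did not, reads from that stretch could not be told apart. Hspb2 over Cryab was 0.0704 and 0.0530 in treated 17 and 33/35, and 0.0305, 0.0647 and 0.0125 in untreated 13, 14 and 15. Whether reads of Cryab were counted for Hspb2 was not tested. Hspb6 (chromosome 7, 30552178 to 30555443) shares 8.79% of its exonic bases with other genes, mostly Proser3 on the opposite strand. The remaining members, Hspb1 (chromosome 5, 135887919 to 135889563), Hspb8 (chromosome 5, 116408491 to 116422864), Hspb3 (chromosome 13, 113662896 to 113663676), Hspb7 (chromosome 4, 141420779 to 141425311) and Bag3 (chromosome 7, 128523616 to 128546981), share no exonic base with another annotated gene.

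**Figure D2:**
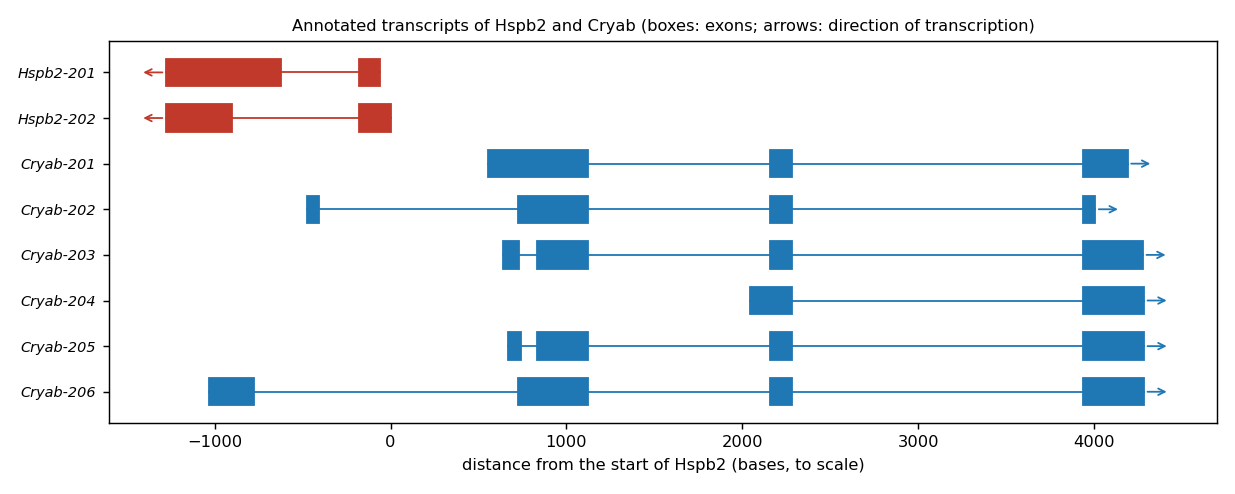
Annotated transcripts of Hspb2 (red) and Cryab (blue), to scale, by distance in bases from the start of Hspb2; boxes are exons and arrows give the direction of transcription. The genes are transcribed in opposite directions, and 2 of the 6 Cryab transcripts begin within Hspb2.

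Hspb8 and Bag3 had much the same pattern and are described as a pair. HSPB8 and BAG3 act as a complex that sorts misfolded proteins for autophagy. Hspb8 measured 84.8 and 70.5 FPKM in treated 17 and 33/35, against 76.7, 175 and 52.6 FPKM in untreated 13, 14 and 15. Bag3 measured 45.9 and 38.0 FPKM in the treated libraries, against 38.4, 93.9 and 27.8 FPKM in untreated 13, 14 and 15. Untreated 14 was the highest and untreated 15 the lowest for both, and treated and untreated values overlapped. Hspb8 in untreated 14 was 2.70 times the mean of untreated 13 and 15. In treated 17 and 33/35 it was 1.31 and 1.09 times that mean. For Bag3 these values were 2.83, 1.385 and 1.15. Both genes were above that mean in these libraries, where muscle transcripts were more abundant. Yet untreated 13, with few muscle transcripts, exceeded treated 33/35 for Hspb8 (76.7 against 70.5 FPKM) and by little for Bag3 (38.4 against 38.0 FPKM).

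The ratio of Bag3 to Hspb8 was nearly constant, at 0.541 and 0.538 in treated 17 and 33/35, against 0.501, 0.537 and 0.528 in untreated 13, 14 and 15. Over the 5 libraries it varied by 1.08 times, while Hspb8 over Hspb1 varied by 1.79 times. Among the 13526 other genes tested, Bag3 had the pattern closest to that of Hspb8 (distance 0.088 between centred log2 values over 5 libraries). For Bag3, Hspb8 came after Gm10182 alone (distance 0.087). Gm10182 was the closest gene outside the list for Hspb8 too (distance 0.101), and Hmgn2, a chromatin protein, was the next for both. Their order of libraries (untreated 14, treated 17, untreated 13, treated 33/35, untreated 15) was that of the summed smooth muscle markers and of 2.13% of all genes tested. Acta2, the smooth muscle actin, measured 36.9 and 22.5 FPKM in treated 17 and 33/35 and 30.6, 62.3 and 17.2 FPKM in untreated 13, 14 and 15. The part of smooth or skeletal muscle in the levels of this pair was not tested.

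Hspb1, which encodes the small heat shock protein HSP25 of mice, was the most abundant member where few muscle transcripts were. HSPB1 binds actin and is phosphorylated by the kinase MAPKAPK2. Hspb1 measured 138 and 113 FPKM in treated 17 and 33/35, against 184, 263 and 142 FPKM in untreated 13, 14 and 15. Both treated values lay below all 3 untreated values, although treated 17 and untreated 15 differed by little. It was highest in untreated 14, as the muscle markers were, but lower in both muscle-holding treated libraries than in untreated 13 and 15.

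The genes most like Hspb1 over the 5 libraries were Atoh8, a transcription factor, Hmox1, the stress-induced haem oxygenase, and Alpl, an alkaline phosphatase, at distances of 0.22 each. Hmox1 measured 8.08 and 7.46 FPKM with the drug and 9.98, 15.9 and 8.22 FPKM in untreated 13, 14 and 15. Such likeness over 5 libraries is a description. The genes most like the muscle-borne members were, for Hspb6, Myadml2 and Sh3bgr (0.075 and 0.11), for Hspb7, Itgb1bp2 and Cacna1s, the muscle calcium channel (0.16 each), and for Hspb3, Shisa2 (0.15). For Hspb2 the closest was Atp5g1 (0.36), which encodes a ring subunit of ATP synthase, and for Cryab it was Akap6 (0.20), an anchor of protein kinase A in striated muscle.

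The RefSeq table of promoter windows (GRCm38.p6, 250 bases before to 50 after each start) held 6 of the 8 members, all but Hspb2 and Cryab. The upstream stretches of 3 members are shown, 1 that is fat-expressed alone (Hspb1), 1 that is muscle-borne alone (Hspb3) and 1 that is both (Hspb6). Capitals mark matches to GAANNTTC or TTCNNGAA, forms of the heat shock element bound by heat shock factors, and, at the end of the Hspb3 stretch alone, a match to the MEF2 element, bound by a muscle transcription factor. The heat shock and MEF2 elements read the same on both strands.
Hspb1, chr5:135887669-135887918, plus strand: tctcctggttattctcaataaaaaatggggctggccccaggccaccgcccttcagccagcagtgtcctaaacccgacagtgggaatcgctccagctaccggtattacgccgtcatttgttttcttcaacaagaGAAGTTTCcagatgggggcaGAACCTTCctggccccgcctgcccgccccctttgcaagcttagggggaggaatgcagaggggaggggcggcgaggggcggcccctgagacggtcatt
Hspb3, chr13:113663677-113663926, minus strand: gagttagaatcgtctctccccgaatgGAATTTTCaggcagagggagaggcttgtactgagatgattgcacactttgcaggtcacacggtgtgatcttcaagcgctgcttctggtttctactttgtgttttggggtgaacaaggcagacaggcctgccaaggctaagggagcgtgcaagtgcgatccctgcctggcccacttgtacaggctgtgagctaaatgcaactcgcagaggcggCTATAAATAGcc
Hspb6, second window, chr7:30553063-30553267, plus strand: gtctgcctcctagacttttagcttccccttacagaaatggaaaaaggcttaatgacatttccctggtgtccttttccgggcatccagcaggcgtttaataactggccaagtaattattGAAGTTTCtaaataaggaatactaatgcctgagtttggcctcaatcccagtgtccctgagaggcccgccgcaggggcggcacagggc
Hspb1 held 2 matches, beginning 117 and 97 bases before the start, and Hspb3 and Hspb6 held 1 each, at 224 and 120 bases. Hspb8 and Bag3 each held 1 match to GAANNTTC after the start, and Hspb7 and the first window of Hspb6 held none. The 3 stretches shown all held a match before the start, so they do not stand for the other members of their kind. One of the 2 forms occurred in 15.1% of the 32851 windows in the table. The MEF2 element of Hspb3, 12 bases before the start, occurred in 0.557% of windows and overlaps TATAAA, which occurred there or on the other strand in 13.6%. The E-box CANNTG, found in 72.3% of windows, was in those of Hspb1, Hspb3, Hspb7 and Hspb8, and the CArG box, found in 1.63%, was in 0 of the 7 windows of members. A match is a description of the letters and does not show that a factor was bound.

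By summed level, the 7 small heat shock protein genes came to 976 and 557 FPKM in treated 17 and 33/35, against 323, 2856 and 243 FPKM in untreated 13, 14 and 15. Hspb1 made up 14.1% and 20.3% of that sum in the treated libraries, and 57.1%, 9.21% and 58.3% in untreated 13, 14 and 15. The 5 muscle-borne genes together made up 77.2% and 67.1% in the treated libraries, and 19.1%, 84.7% and 20.0% in untreated 13, 14 and 15.

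**Figure D3:**
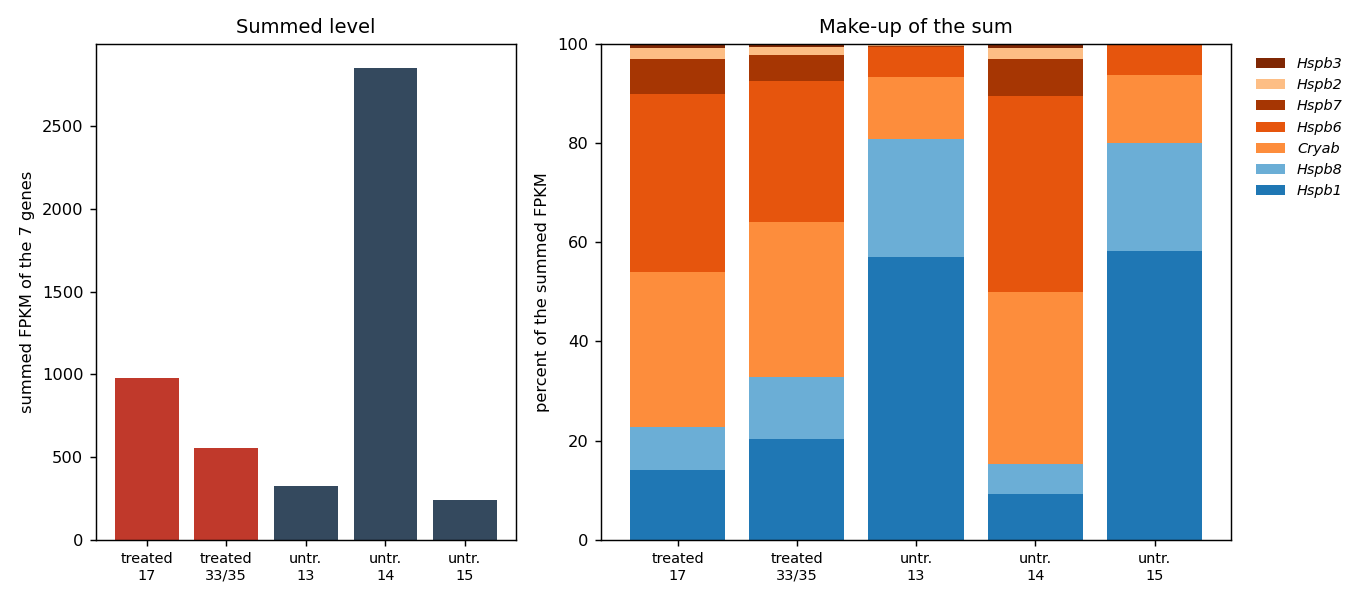
Left, summed FPKM of the 7 small heat shock protein genes in each library, treated left of untreated; right, the percent of that sum from each gene, with the muscle-borne genes in orange and brown and Hspb8 and Hspb1 in blue. Hspb1 is 57.1% and 58.3% of the sum in untreated 13 and 15, and 9.21% in untreated 14.

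The drug comparison asked whether these genes differ with BACE1 inhibition. None of the 8 passed the test (limma on log2(FPKM + 0.5), Benjamini-Hochberg adjusted p under 0.05 over 13527 genes), where 0.0444% of all genes were called, and none had an unadjusted p under 0.05. The 5 muscle-borne members had higher and the other 3 lower means with the drug on the log2 scale, which is 37.5% lower, against 35.7% of all genes tested. The median log2 fold change of the 8 was 1.35, against 0.06 for all genes tested and 4.07 for the 30 muscle markers. On the FPKM scale all 8 had lower means in the treated group, Hspb6 with 255 ± 136 FPKM (SD, n = 2) in treated and 388 ± 642 FPKM (SD, n = 3) in untreated libraries. All 8 were highest in untreated 14, which weighs most in the untreated mean on that scale. The share of all genes with lower FPKM means was not computed.

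Hspb1 averaged 126 ± 17.8 FPKM (SD, n = 2) in treated and 196 ± 61.5 FPKM (SD, n = 3) in untreated libraries. Its log2 fold change was -0.60 (SE 0.32, 95% interval -1.43 to 0.22, limma adjusted p = 1). It was the only member whose groups did not overlap, and 3.18% of all genes lay below in both treated libraries as it did. An exact permutation test of 2 against 3 libraries cannot give a two-sided p under 0.2. With each library left out in turn the log2 fold change ran from -0.37 without untreated 14 to -0.82 without untreated 15, its sign being fixed by groups that do not overlap.

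For Hspb8 the log2 fold change was -0.20 (SE 0.55, 95% interval -1.64 to 1.23) and for Bag3 -0.16 (SE 0.56, 95% interval -1.61 to 1.30), each with a limma adjusted p of 1. Without untreated 14 both turned positive, with 0.28 for Hspb8 and 0.35 for Bag3 (limma adjusted p = 0.651 and 0.557). The intervals reach past a doubling in both directions for the pair, so neither a rise nor a fall of that size could be told from these libraries.

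The muscle-borne members had wide intervals. Hspb7 had a log2 fold change of 3.10 (SE 2.78, 95% interval -4.16 to 10.4), Hspb6 1.75 (SE 2.09) and Cryab 1.06 (SE 1.65), each with a limma adjusted p of 1. Hspb2 and Hspb3 each had 1.64 (SE 2.0 and 1.9), and the value of Hspb3, listed at 0 in untreated 13 and 15, was 3.08 with a pseudocount of 0.1 and 1.10 with a pseudocount of 1. Without untreated 14, Hspb7 (5.77), Hspb6 (3.75) and Cryab (2.64) were called higher, with limma adjusted p of 0.0206, 0.0468 and 0.0472, where 1.11% of all genes were called higher. In that fit all 30 muscle markers were called too, with a median log2 fold change of 7.22, so the drug and the muscle transcripts cannot be told apart there.

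With the muscle markers in the model the members moved in ways that depended on how the markers entered. With their mean log2 value as a covariate all 8 members had negative log2 fold changes, from -0.43 for Hspb7 to -1.04 for Cryab, and 4 were called lower, where 3.79% of all genes were. These were Hspb1 (-0.92), Hspb6 (-0.91), Cryab (-1.04) and Bag3 (-0.82), with limma adjusted p of 0.0328, 0.0370, 0.0163 and 0.0475. This fit called 1966 genes in either direction, against 6 without a covariate. Among them were 3 of the 30 muscle markers, which had a median log2 fold change of -0.05. With the markers' summed FPKM as the covariate instead, added after the data were seen, Hspb1 was at -0.58 (limma adjusted p = 0.253) and Hspb8 and Bag3 at -0.15 and -0.10. Hspb3, Hspb6, Hspb7 and Cryab were then called higher, as were all 30 muscle markers and 1.996% of all genes in either direction.

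**Figure D4:**
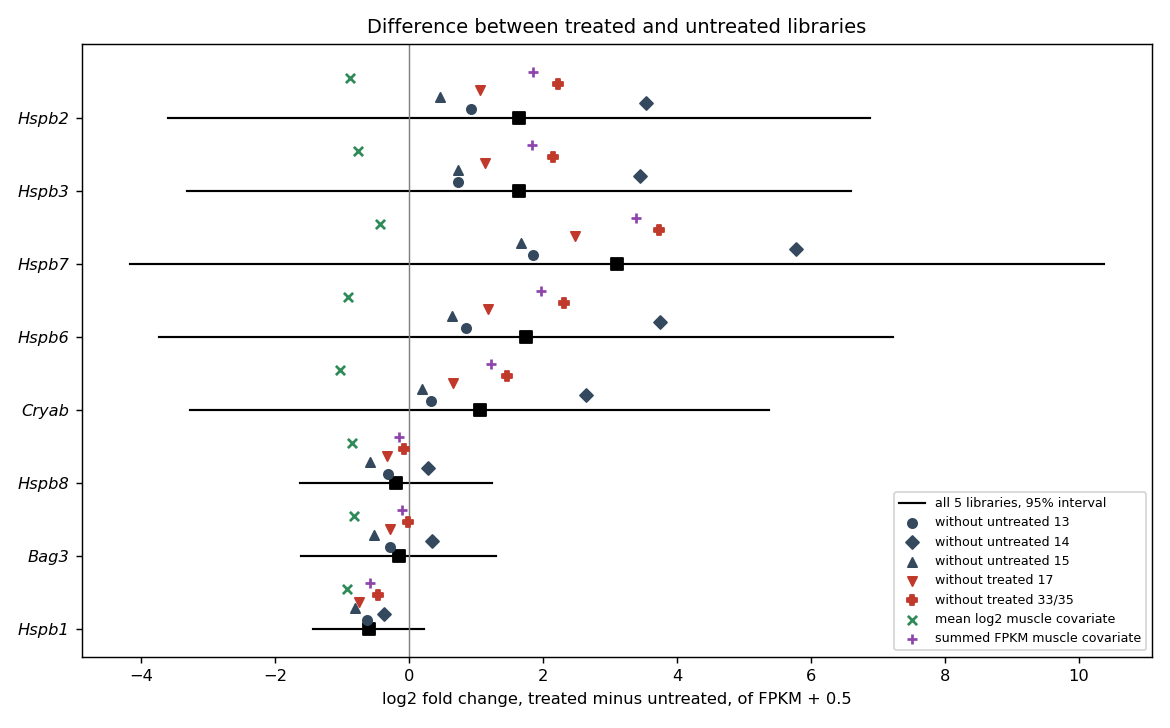
Log2 fold change, treated minus untreated, of FPKM + 0.5 for each member (black square with its 95% interval), and the same without each library in turn and with either muscle covariate (coloured marks above the square). The intervals of all 8 members include 0, and without untreated 14 the values of Hspb8 and Bag3 are 0.28 and 0.35.

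No other gene of the small heat shock system that was tested was called. Of the other small heat shock protein genes, Cryaa, the alpha-A crystallin of the lens, was listed at 0 in all 5 libraries, and Hspb9 and Odf1, both genes of the testis, stayed under the filter. Hspb11, which encodes a protein of the cilium, measured 12.1 and 15.8 FPKM in treated 17 and 33/35 and 15.9, 4.89 and 14.6 FPKM in untreated 13, 14 and 15. All 5 other BAG family genes were tested, and Bag1 and Bag5 had log2 fold changes of -0.08 and 0.17.

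Of the list of heat shock factors and their classical targets, 10 of 12 tested genes had lower and 2 higher means with the drug, where 35.7% of all genes had lower means, and 0 passed, with 0 at an unadjusted p under 0.05. The median log2 fold change of the list was -0.12, against 0.06 for all genes. In 3 of the 12 both treated values lay below all untreated ones, where 3.18% of all genes did. All genes of the list but the heat shock factors themselves were highest in untreated 13, and the factors were highest in untreated 14. The genes of the list thus moved together and do not count as independent. Hsph1, a co-chaperone of HSP70, measured 23.8 and 24.0 FPKM in treated 17 and 33/35, against 77.8, 34.3 and 36.3 FPKM in untreated 13, 14 and 15 (log2 fold change -0.93, SE 0.41, limma adjusted p = 1). Ahsa1, an activator of HSP90, had -0.33 (SE 0.19). The 2 genes with higher means were Dnajb1 (0.48, SE 0.63) and Hspd1 (0.06, SE 0.43). Hspa1a and Hspa1b, HSP70 genes listed with the partners of BAG3 instead, had 0.65 (SE 1.07) and 0.31 (SE 0.94). Hsf1, the main heat shock factor, measured 14.1 and 10.8 FPKM with the drug and 10.6, 21.9 and 11.3 FPKM in untreated 13, 14 and 15.

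The partners of BAG3 in autophagy showed no call among 15 tested, with 9 higher and 6 lower means. Hspa8, the constitutive HSP70, measured 486 and 459 FPKM in treated 17 and 33/35, below the 673, 550 and 523 FPKM of untreated 13, 14 and 15 (log2 fold change -0.29, SE 0.20, limma adjusted p = 1). Flnc, the muscle filamin cleared by this route, followed the muscle markers, with 52.0 and 19.2 FPKM with the drug and 0.812, 134 and 0.627 FPKM in untreated 13, 14 and 15. Among 9 kinases that act on small heat shock proteins 0 passed, with Akt1 at 0.16 and Mapk14, the p38 kinase, at -0.15. The 7 filament and sarcomere clients had a median log2 fold change of 3.05 and 0 calls. Of these, Myot, which encodes the Z-disc protein myotilin, measured 193 and 65.5 FPKM with the drug and 0.275, 494 and 0.144 FPKM in untreated 13, 14 and 15.

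Markers of other cells were set beside these values. Cardiac markers stayed low, with Myh6, the heart myosin, at 8.30 and 4.55 FPKM in treated 17 and 33/35 and at most 29.0 FPKM, in untreated 14. Of 8 cardiac markers, 3 were listed at 0 in each library but untreated 15, where 4 were. By the same measure as for skeletal muscle, smooth muscle markers had shares of 0.0239% and 0.0139% with the drug, and 0.0161%, 0.0384% and 0.0113% in untreated 13, 14 and 15. Adiponectin (Adipoq) measured 408 and 561 FPKM with the drug and 602, 332 and 476 FPKM in untreated 13, 14 and 15. Skeletal, cardiac and smooth muscle, thermogenic, adipocyte, endothelial, macrophage, Schwann cell and blood markers had 0 calls each. The summed thermogenic markers came to 4746 and 5573 FPKM in treated 17 and 33/35, against 6406, 2126 and 6718 FPKM in untreated 13, 14 and 15. Both treated sums, like both treated values of Hspb1, lay below those of untreated 13 and 15, while in untreated 14 the sum was lowest and Hspb1 highest. The part of these cells in the level of Hspb1 was not tested.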

How the data were processed

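RNA of whole brown adipose tissue, taken up in Trizol, was turned into total RNA libraries for Illumina sequencing, according to the labels. The authors deposited FPKM values per Ensembl gene in 1 table per sample, per the file headers. The submitters' processing notes name CASAVA 1.7 and the build GRCm38, while aligner, quantification program and strand setting are not given in the sources used here. FPKM are no counts, so only relative depths are known and no counting interval was given. Symbols and gene models came from GENCODE M21. Genes that averaged at least 1 FPKM were compared as log2(FPKM + 0.5) with limma 3.58.1 in R 4.3.3 (variance trend, two-sided, Benjamini-Hochberg adjusted p under 0.05). Fold changes on this scale understate those of low genes. Whether each sample was a different animal is not labelled, and p-values cover the spread among these samples, which may be technical.

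The members, lists and tests were chosen with earlier results of these data known. In each list up to 4 genes past the threshold, or else the 2 of smallest p, could be named, with fixed defining markers and the 3 genes most like each member (smallest distance between centred log2 values). Hsf1, Dnajb1, Hspd1, Hspa1a and Hspa1b were named, and Hmox1, Hspb11 and the genes at 0 described, after their values were seen. Map1lc3b had no matching identifier and was not analysed here. The test was first checked on simulated data in which each gene varied independently. That check does not cover shifts shared by many genes, such as those of the muscle transcripts. Alternatives covered the pseudocount, filter, scaling, variance trend, the identical tables, muscle covariates and each library left out. Tables and plots used Python 3.11.15, pandas 2.3.3 and matplotlib 3.10.9.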

Additional observations from a re-analysis of the deposited data

How the results depend on the processing

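The 8 members were refitted under 16 alternatives, 1 of them (the summed FPKM covariate) added after the data were seen. Pseudocount, filter, scaling, variance trend and counting samples 33 and 35 separately kept the direction of all 8 members, with none called; for Hspb1 the groups do not overlap, which fixes its sign in most of these fits. The mean log2 muscle covariate reversed Hspb2 (-0.88), Hspb3 (-0.76), Hspb6 (-0.91), Hspb7 (-0.43) and Cryab (-1.04). With it Hspb6, Cryab, Hspb1 (-0.92) and Bag3 (-0.82) were called lower. The summed FPKM covariate called Hspb3 (1.83), Hspb6 (1.96), Hspb7 (3.39) and Cryab (1.23) higher. The cause was not tested. Leaving out each library in turn gave log2 fold changes from -0.82 to -0.37 for Hspb1, 0.47 to 3.54 for Hspb2, 0.73 to 3.45 for Hspb3, 0.64 to 3.75 for Hspb6, 1.68 to 5.77 for Hspb7, -0.58 to 0.28 for Hspb8, 0.20 to 2.64 for Cryab and -0.52 to 0.35 for Bag3, the upper end being the value without untreated 14 for all 8. Where 1 treated library was left, it was assumed to vary like the untreated group. The number of genes called was 6 as reported, 2 with a pseudocount of 0.1, 0 without a filter (522 at an unadjusted p under 0.05), 1 with a mean of at least 5 FPKM, 0 with centring on adipocyte markers (34 at an unadjusted p under 0.05), 1966 with the mean log2 covariate and 270 with the summed FPKM covariate, and 0 to 158 with a library left out, the 158 being without untreated 14. Centring on adipocyte markers moved the median of all genes to -0.21, and the members' median to 1.08. No paired analysis was possible because the groups share no replicate number. Read totals were not known, so a value listed at 0 has no limit.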
